A study of Rattus norvegicus with 8 samples.

Results

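The genes that make thyroid hormone were examined as 9 named members: thyroglobulin (Tg), the sodium iodide symporter (Slc5a5), pendrin (Slc26a4), the dual oxidases Duox1 and Duox2, their maturation factors Duoxa1 and Duoxa2, iodotyrosine deiodinase (Iyd) and the TSH receptor (Tshr). They were chosen by gene symbol from a count table of 30560 rat gene identifiers, and all 9 were found. For each gene the transcript with the highest summed count was used. Thyroid RNA had been sequenced from male Wistar rats whose necks received 4 Gy of X-rays or a sham exposure, with no genetic modification given. The 1w0Gy (sham) and 1w4Gy (4 Gy) rats were exposed at 1 week of age, and the 4m0Gy (sham) and 4m4Gy (4 Gy) rats at 4 months of age. All thyroids were taken about 8 weeks after exposure. Each group had 2 samples from different rats, which the study picked among 7 rats for the quality of their RNA, so they are not a random draw from the group. The question was whether the hormone-making genes differed after irradiation at either age, or between the younger and the older rats.

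A follicular cell takes up iodide from the blood through the symporter on its basal side and passes it across its apical side into the follicle lumen. There iodine is fixed, with hydrogen peroxide supplied by the dual oxidases, on tyrosines of thyroglobulin, a large secreted protein that is both the scaffold and the store of the hormone. The maturation factors carry the oxidases to the apical surface, and iodotyrosine deiodinase returns iodide from unused iodotyrosines. The TSH receptor acts on this chain, in part through cyclic AMP.

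A sample held between 14835400 and 18138102 counts on genes, and the 9 members together took 18.65% to 21.45% of them, nearly all of it Tg. The 6 follicular cell markers looked at (Nkx2-1, Pax8, Foxe1, Hhex, Cdh16, Epcam) were present in every sample, with a summed level of 1838 to 2232 CPM, that is counts scaled to a common library size by TMM. Other tissue was present too. C cell markers summed to 1971 to 7116 CPM, fibroblast markers to 822.5 to 3019 CPM and parathyroid markers to 641.8 to 7720 CPM, the lowest of the last in the second 4m4Gy sample. In bulk tissue, fewer cells of a type and less RNA per cell cannot be told apart.

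Promoter sequences of RefSeq were at hand for 6 of the 9 members, none of them Tg, Duoxa2 or Tshr. They cover 250 bases before and 50 bases after an annotated start and are shown because the oxidase genes and their maturation factors lie side by side, and because the symporter was the most variable of the tested members. In the same annotation Duox2 neighbours Duoxa2, Duoxa2 neighbours Duoxa1, and Duoxa1 neighbours Duox1, so that 4 members stand in a row on chromosome 3. The start taken at Slc5a5 is the outermost one of the gene, and those at Iyd, Duoxa1 and Duox2 lie 39, 104 and 133 bases inside it. Those at Slc26a4 and Duox1 lie 752 and 1871 bases inside, so their windows do not describe the outermost promoter and are not shown. They held none of the motifs below. Capitals mark the matches to 5 short motifs, searched on both strands. The first is TATAAA, the box near which transcription often starts. The second is GGGCGG, bound by factors of the Sp family. The third is CAAGTG, a core known to be bound by the thyroid factor Nkx2-1. The fourth is TGACGT, a part of the site that responds to cyclic AMP. The last is CCAAT, bound by the factor NF-Y.
Slc5a5, GRCr8, plus strand, chr16:18580455-18580754: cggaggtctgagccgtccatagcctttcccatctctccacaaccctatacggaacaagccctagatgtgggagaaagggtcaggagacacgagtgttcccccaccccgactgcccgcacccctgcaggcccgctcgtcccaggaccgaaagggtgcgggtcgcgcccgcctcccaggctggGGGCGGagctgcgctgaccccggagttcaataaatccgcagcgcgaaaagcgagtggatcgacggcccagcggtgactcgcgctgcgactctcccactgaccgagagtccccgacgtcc
Duox2, GRCr8, minus strand, chr3:129698704-129699003: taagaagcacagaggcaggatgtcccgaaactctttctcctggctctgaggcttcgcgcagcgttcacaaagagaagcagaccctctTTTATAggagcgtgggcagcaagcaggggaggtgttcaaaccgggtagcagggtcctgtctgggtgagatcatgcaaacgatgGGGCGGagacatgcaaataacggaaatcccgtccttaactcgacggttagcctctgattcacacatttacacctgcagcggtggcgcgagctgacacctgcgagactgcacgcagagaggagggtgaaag
Duoxa1, GRCr8, minus strand, chr3:129713957-129714256: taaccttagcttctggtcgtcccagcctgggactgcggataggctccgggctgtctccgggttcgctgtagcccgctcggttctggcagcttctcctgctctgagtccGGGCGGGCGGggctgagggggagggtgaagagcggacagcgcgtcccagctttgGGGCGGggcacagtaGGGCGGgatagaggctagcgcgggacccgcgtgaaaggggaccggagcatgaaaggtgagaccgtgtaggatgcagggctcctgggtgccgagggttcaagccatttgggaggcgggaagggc
Iyd, GRCr8, plus strand, chr1:42409888-42410187: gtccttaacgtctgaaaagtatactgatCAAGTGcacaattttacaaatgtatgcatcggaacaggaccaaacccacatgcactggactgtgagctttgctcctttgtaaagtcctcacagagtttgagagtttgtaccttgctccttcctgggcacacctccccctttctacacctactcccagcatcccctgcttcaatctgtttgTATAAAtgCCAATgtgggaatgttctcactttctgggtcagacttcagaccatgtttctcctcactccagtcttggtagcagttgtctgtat
Guanine and cytosine made up 66% of the stretch at the symporter, against a median of 51.7% over 33469 promoters, and the stretch held 1 match of the second motif and none of the first. That at Duoxa1 held 4 matches of the second motif, 2 of which overlap each other. The second motif was found in 33.1% of all promoters and in 3 of the 6 windows (Slc5a5, Duox2 and Duoxa1). The first was found in 14.2% of all promoters and in 2 members, Duox2 and Iyd, and its match at Duox2 lies on the opposite strand to the one shown. The third stood in 14.1% of all promoters and the last in 37.5%, and each was found in Iyd alone among the members. The fourth was in none of the 6 and in 7.94% of all promoters. A match of letters describes the sequence and is not a site, and the absence of a match says only that these letters are not in this window.

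Levels are compared between genes only per length, as TPM, which the authors scaled by transcript length and to a fixed total per sample. Tg was the most abundant gene of the thyroid by CPM and averaged 22150 TPM. Iyd followed with 199.1, Slc5a5 with 153.9 and Tshr with 54.21 TPM. The maturation factors stood at 32.6 (Duoxa2) and 28.3 TPM (Duoxa1), above the oxidases that they serve, which stood at 10.11 (Duox2) and 9.511 TPM (Duox1). Slc26a4 averaged 0.04543 TPM. These levels hold for the transcript used, since TPM were given per transcript and reads were counted for each transcript that they overlap. In the first 1w0Gy sample, Tg stood at 20320 TPM on the transcript used and at 56910 TPM on one of 1218 bases.

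**Figure D1:**
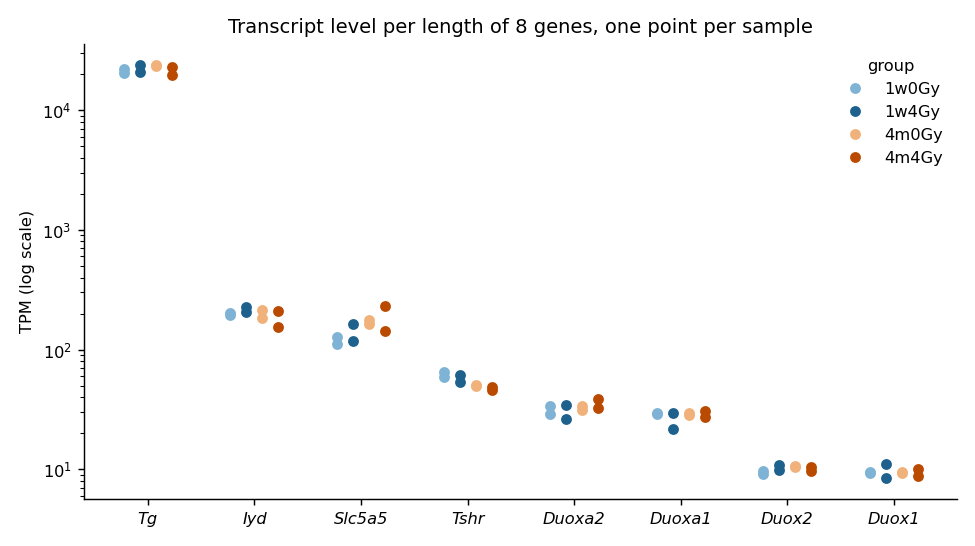
Transcript level per length in TPM (log axis) of 8 genes, 1 point for each of the 8 samples, coloured by group. From left to right the mean falls from 22150 TPM for Tg to 9.511 TPM for Duox1, and Slc26a4, with a sample at 0, is left out.

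Most steps of this order were larger than the spread between samples. Tg lay above Iyd, Slc5a5 above Tshr, Tshr above Duoxa2 and Duoxa1 above Duox2 in 8 of 8 samples with no overlap of their ranges. The ranges of Iyd and Slc5a5 overlapped, with Iyd higher in 7 of 8 samples. Those of Duoxa2 and Duoxa1 (7 of 8) and of Duox2 and Duox1 (6 of 8) overlapped as well, so neighbours in these pairs are not ordered beyond their spread.

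**Figure D2:**
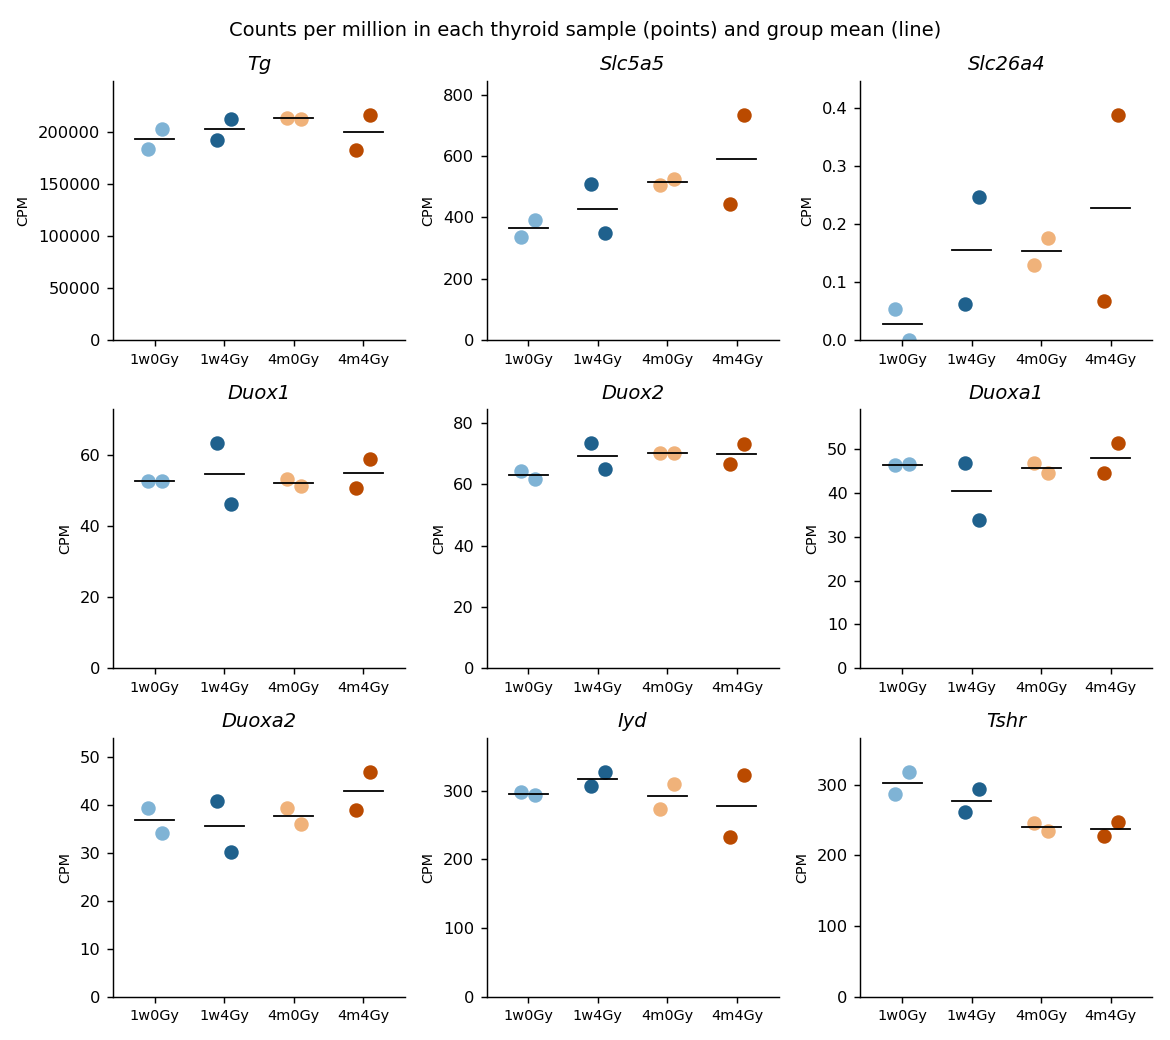
CPM of the 9 genes (vertical axes, from 0) in the 4 groups (horizontal axes), 1 point per sample, with a line at the mean of the 2 samples. Tshr is lower in all 4 older samples than in the 4 younger ones, Slc5a5 spreads most within 4m4Gy, and Slc26a4 stays under 0.4 CPM.

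Irradiation was compared by the quasi-likelihood test of edgeR, with p adjusted over all genes tested by the method of Benjamini and Hochberg. A call at either single age also needed a fold change above 1.5 or under 0.5. 8 members were tested, since Slc26a4 did not pass the filter on low counts. After neonatal irradiation none of the 8 was called, where 0% of 15359 genes were called. The count of 0 over all genes stood beside 882 genes at an unadjusted p under 0.05, no member among them, and 13 calls by DESeq2, again with no member. The background of 0% depended on the setting. With every sample kept, edgeR called 7 genes with the sample number as a term. It called 1 with a fit of all 8 samples and 1 with its robust setting, no member among them. The background also moved when the second 1w4Gy sample was left out, a fit with 1 sample in that group. After irradiation at 4 months none of the 8 was called and 0% of 15253 genes were, with 1227 genes at an unadjusted p under 0.05, no member among them, and 4 calls by DESeq2 that included no member. Leaving out the first or the second sample gave 29 or 8 calls for 4m0Gy and 3 or 1 for 4m4Gy, none of them a member. Over both ages together none of the 8 was called, against 0.00638% of 15684 genes, and DESeq2 made 16 calls, none of them a member. That 1 gene became 11 without the first 4m4Gy sample, 5 without the first 4m0Gy sample and 3 without the second 1w4Gy sample, with no member called. In the interaction of age and irradiation none of the 8 was called and 0% of 15684 genes were, with 1430 genes but no member at an unadjusted p under 0.05 and 21 calls by DESeq2, none of them a member. By edgeR the smallest adjusted p over all genes was 0.0813 after neonatal irradiation, 0.104 at 4 months and 0.269 in the interaction. The genes that the paper reported after irradiation, Cdkn1a among them, were thus not called at either single age. A count of 0 among the members therefore cannot show that they were unchanged.

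The symporter Slc5a5 imports iodide. It was measured at 335 and 392.1 CPM for 1w0Gy and at 507.2 and 349.5 CPM for 1w4Gy. In the older rats it stood at 504.8 and 525.2 CPM for 4m0Gy and at 442.9 and 734.4 CPM for 4m4Gy. The irradiated samples enclosed or overlapped the sham samples at both ages, and the 2 irradiated samples of a group lay 1.45-fold (1w4Gy) and 1.66-fold (4m4Gy) apart, against 1.17-fold and 1.04-fold in the sham groups. The log2 fold change of the neonatally irradiated rats was 0.24 (SE 0.18, adjusted p = 0.877) and that of the rats irradiated at 4 months 0.19 (SE 0.21, adjusted p = 0.842). Their 95% intervals reach from a fold of 0.879 to 1.58 and from 0.812 to 1.6. Without the first 1w4Gy sample the neonatal value was -0.05, and without the second 4m4Gy sample the value at 4 months was -0.23.

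Pendrin, an anion exchanger that can pass iodide into the lumen, was nearly absent from these counts. Slc26a4 had 1 and 0 counts for 1w0Gy, 1 and 4 for 1w4Gy, 2 and 3 for 4m0Gy, and 1 and 6 for 4m4Gy, 18 in all. A count of 0 allows up to 3 counts, which was 0.173 CPM in that library and covers counting error only. 6 of the 8 samples were at or under 3 counts, so no fold change is given, and a difference was not detectable at this depth. For scale, Slc26a7, another anion exchanger of the apical side that was picked after its values had been seen, had 22307 counts over the 8 samples.

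Thyroglobulin, the iodinated scaffold, was measured at 183300 and 202900 CPM for 1w0Gy, 192300 and 212800 for 1w4Gy, 213800 and 212700 for 4m0Gy, and 182600 and 216500 for 4m4Gy. The irradiated and sham samples overlapped at both ages. The log2 fold change was 0.07 (SE 0.26, adjusted p = 0.984) in the neonatally irradiated rats and -0.10 (SE 0.15, adjusted p = 0.887) in those irradiated at 4 months. The intervals, 0.689- to 1.6-fold and 0.73- to 1.19-fold, still hold sizeable changes in either direction.

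The direction of the Tg values depended on which transcript was counted. The table lists 5 transcripts of Tg, and reads were counted for each transcript that they overlap. The transcript used, 8461 bases long, and one of 8317 bases held almost the same reads. A transcript of 1218 bases held 40.32% and 38.49% of the count of the longest in 1w0Gy, 37.85% and 34.22% for 1w4Gy, 35.78% and 33.04% for 4m0Gy, and 44.85% and 39.75% for 4m4Gy. Per base that transcript carried 2.3 to 3.12 times the reads of the longest, while one of 942 bases carried 0.195 to 0.318 times, so reads lay unevenly along the gene. The first 4m4Gy sample, lowest in Tg CPM, had the highest share for the 1218-base transcript and the lowest for the 942-base one (2.168%). Counted on the 1218-base transcript, Tg had a log2 fold change of -0.06 after neonatal irradiation and 0.18 in the rats irradiated at 4 months, with adjusted p of 0.981 and 0.747. On the 942-base transcript the same comparisons gave 0.28 and -0.57, with adjusted p of 0.874 and 0.538. At 4 months the unadjusted p of edgeR on this transcript was 0.00738. The interaction of age and irradiation there was 0.84 (SE 0.265, unadjusted p = 0.0115, adjusted p = 0.443, edgeR). No choice of transcript made a call, and a change in transcript use and a change in the coverage along the gene cannot be told apart in these counts. These transcripts were examined after their values had been seen. Another gene, Sla, overlaps Tg in the RefSeq annotation, and whether strand was used in counting was not given in the sources used here.

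**Figure D3:**
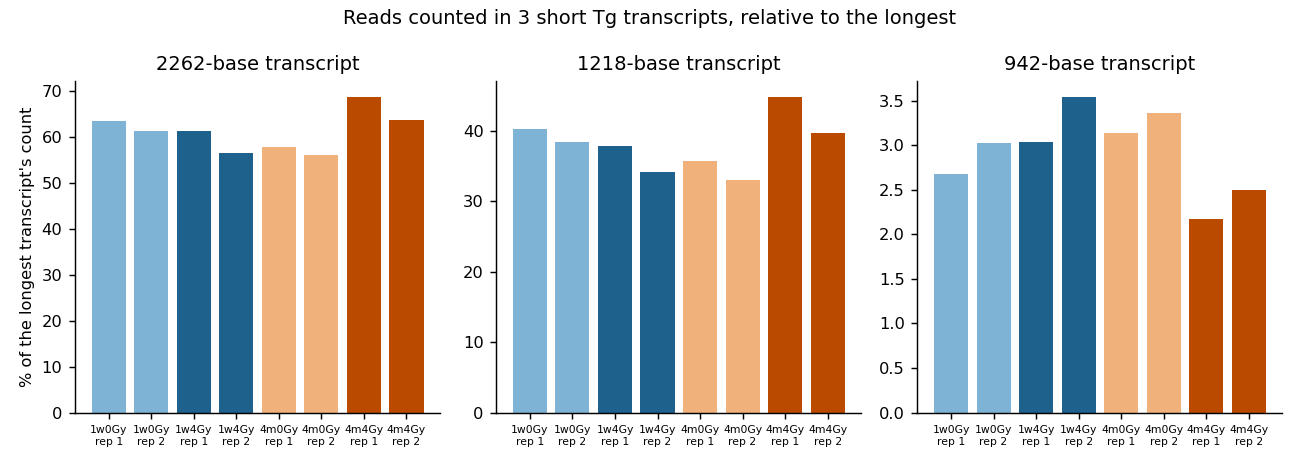
Counts of 3 short Tg transcripts as a percentage of the count of the longest one (vertical axes, from 0) in each of the 8 samples, 1 bar per sample. The 2 samples of 4m4Gy are at 44.85% and 39.75% for the 1218-base transcript against 35.78% and 33.04% for 4m0Gy, and they are the 2 lowest of all samples for the 942-base transcript.

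The dual oxidases make the hydrogen peroxide with which iodine is fixed on thyroglobulin. Duox1 was at 52.62 and 52.63 CPM for 1w0Gy, 63.23 and 46.22 for 1w4Gy, 53.11 and 51.15 for 4m0Gy, and 50.64 and 58.91 for 4m4Gy. Its irradiated samples lay on both sides of the sham samples at each age. Duox2 was at 64.16 and 61.84 CPM for 1w0Gy, 73.36 and 64.88 for 1w4Gy, 70.3 and 70.33 for 4m0Gy, and 66.5 and 72.96 for 4m4Gy. Both 1w4Gy samples were above both 1w0Gy samples for Duox2, and the groups overlapped at 4 months. The log2 fold changes after neonatal irradiation were 0.06 (SE 0.14) for Duox1 and 0.13 (SE 0.09) for Duox2, with adjusted p of 0.975 and 0.876. After irradiation at 4 months they were 0.07 (SE 0.09) and -0.01 (SE 0.08), with adjusted p of 0.871 and 0.972.

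The maturation factors are needed for the oxidases to leave the endoplasmic reticulum. Duoxa1 was at 46.25 and 46.49 CPM for 1w0Gy, 46.88 and 33.8 for 1w4Gy, 46.78 and 44.46 for 4m0Gy, and 44.6 and 51.27 for 4m4Gy. Duoxa2 was at 39.45 and 34.28 CPM for 1w0Gy, 40.97 and 30.28 for 1w4Gy, 39.41 and 36.07 for 4m0Gy, and 38.96 and 47 for 4m4Gy. The second 1w4Gy sample was the lowest of the 8 samples for Duoxa1, Duoxa2 and Duox1 alike, and the second 4m4Gy sample was the highest for both maturation factors. The log2 fold change of Duoxa1 was -0.20 (SE 0.15, adjusted p = 0.876) after neonatal irradiation and 0.07 (SE 0.09, adjusted p = 0.868) in the rats irradiated at 4 months. For Duoxa2 it was -0.05 (SE 0.15, adjusted p = 0.979) and 0.19 (SE 0.11, adjusted p = 0.7). The difference between the ages was -0.27 (SE 0.20, adjusted p = 0.713) for Duoxa1 and -0.24 (SE 0.21, adjusted p = 0.776) for Duoxa2. With the transcript of the highest count for each gene, these were the 2 largest in size among the 8 members. Without the second 1w4Gy sample the neonatal values of Duoxa1 and Duoxa2 were 0.01 and 0.15.

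Within a sample, the ratio of a maturation factor to its oxidase depends neither on library size nor on the share that Tg takes. Per base, Duoxa1 stood to Duox1 as 3.11 and 3.13 for 1w0Gy, 2.62 and 2.59 for 1w4Gy, 3.12 and 3.08 for 4m0Gy, and 3.12 and 3.08 for 4m4Gy. The 6 samples outside 1w4Gy fell within 3.08 to 3.13, and both 1w4Gy samples lay below them. The 95% exact binomial intervals of the 1w4Gy ratios, which cover counting error only, were 2.38 to 2.88 and 2.31 to 2.89, and the intervals of the other 6 samples began between 2.79 and 2.84. They overlap slightly, and this pattern of 1 group was picked out after its values had been seen. With 2 samples against 2, an exact two-sided permutation test cannot go below p = 0.333. Over both ages, with 4 irradiated against 4 sham samples, the log2 ratio differed by -0.13 (exact permutation test, two-sided, p = 0.171, adjusted p = 0.857 over 5 ratios).

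Duoxa2 stood to Duox2 as 3.53 and 3.18 for 1w0Gy, 3.2 and 2.68 for 1w4Gy, 3.22 and 2.94 for 4m0Gy, and 3.36 and 3.69 for 4m4Gy. Here the second 1w4Gy sample was lowest and the groups overlapped at the younger age. At 4 months both irradiated samples were above both sham samples, where an exact two-sided permutation test cannot go below p = 0.333. In CPM, a lack of overlap in either direction at 4 months held for 39.6% of all genes tested. The comparison of the 4 irradiated with the 4 sham samples gave a difference of 0.00 on the log2 scale (exact permutation test, p = 1, adjusted p = 1). The ratio of Slc26a4 to Slc5a5 was not computed, since 1 sample had a Slc26a4 count of 0.

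**Figure D4:**
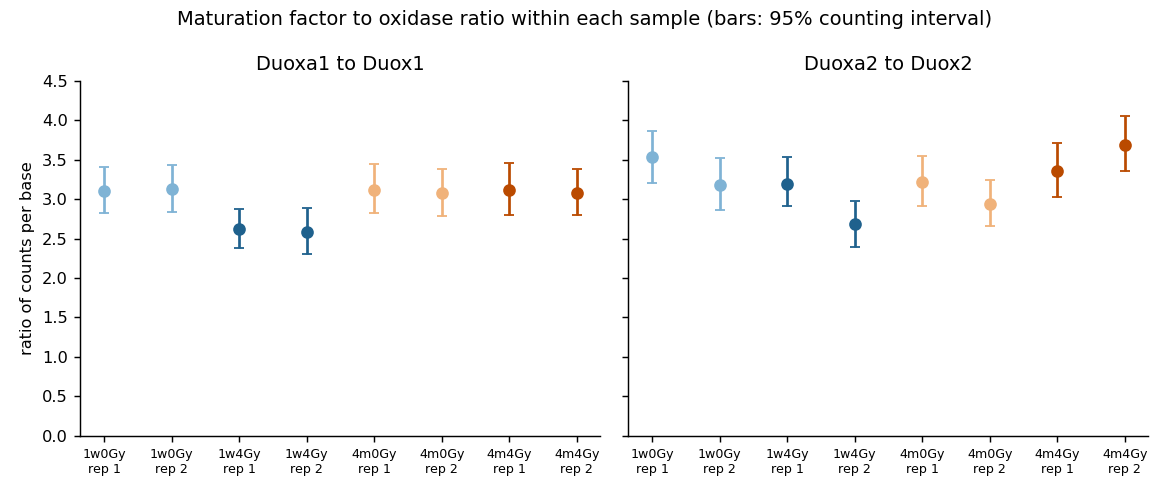
Ratio of counts per base of each maturation factor to its oxidase (vertical axis, from 0) in the 8 samples, 1 point each, with bars for the 95% counting interval. For Duoxa1 to Duox1 the 1w4Gy samples are at 2.62 and 2.59 and the other 6 between 3.08 and 3.13, while Duoxa2 to Duox2 runs from 2.68 to 3.69.

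Iodotyrosine deiodinase recycles iodide. Iyd was at 297.6 and 293.6 CPM for 1w0Gy, 306.6 and 327.6 for 1w4Gy, 273.6 and 309.6 for 4m0Gy, and 232.6 and 322.5 for 4m4Gy. Both 1w4Gy samples were above both 1w0Gy samples, and the 4m4Gy samples enclosed those of 4m0Gy. The log2 fold change was 0.10 (SE 0.09, adjusted p = 0.901) after neonatal irradiation and -0.07 (SE 0.15, adjusted p = 0.916) in the rats irradiated at 4 months.

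The TSH receptor is the input of the system. Tshr was at 286.8 and 318.2 CPM for 1w0Gy, 261.1 and 293.7 for 1w4Gy, 245.5 and 234.6 for 4m0Gy, and 227.4 and 247.1 for 4m4Gy. Irradiated and sham samples overlapped at each age. The log2 fold change was -0.13 (SE 0.11, adjusted p = 0.889) after neonatal irradiation and -0.02 (SE 0.08, adjusted p = 0.964) in the rats irradiated at 4 months, where the 95% interval was 0.872- to 1.12-fold.

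Taking the 8 members as a list, 5 were higher and 3 lower after neonatal irradiation with a median log2 fold change of 0.06, against -4.66e-06 over all genes tested. At 4 months 4 were higher and 4 lower with a median of 0.03, against 0.01 over all genes. The 2 samples of the groups did not overlap for 2 members (Duox2 and Iyd) after neonatal irradiation, where this held for 35.5% of all genes tested, and for 0 members after irradiation at 4 months, where it held for 39.6%. Over both ages the 4 irradiated and 4 sham samples did not overlap for 0 members and for 1.54% of all genes. Over both ages the log2 fold changes were 0.22 for Slc5a5, 0.07 for Duoxa2, 0.06 for Duox1, 0.06 for Duox2, 0.02 for Iyd, -0.01 for Tg, -0.06 for Duoxa1 and -0.07 for Tshr, with SE of 0.06 to 0.16 and adjusted p of at least 0.976. The interaction, the change of the younger rats less that of the older, was 0.17 for Iyd, 0.16 for Tg, 0.15 for Duox2, 0.04 for Slc5a5, -0.02 for Duox1 and -0.11 for Tshr, next to the values of the maturation factors above, and the smallest adjusted p among the 8 was 0.713. The 2 irradiation comparisons share no samples, but that over both ages holds the samples of both.

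**Figure D5:**
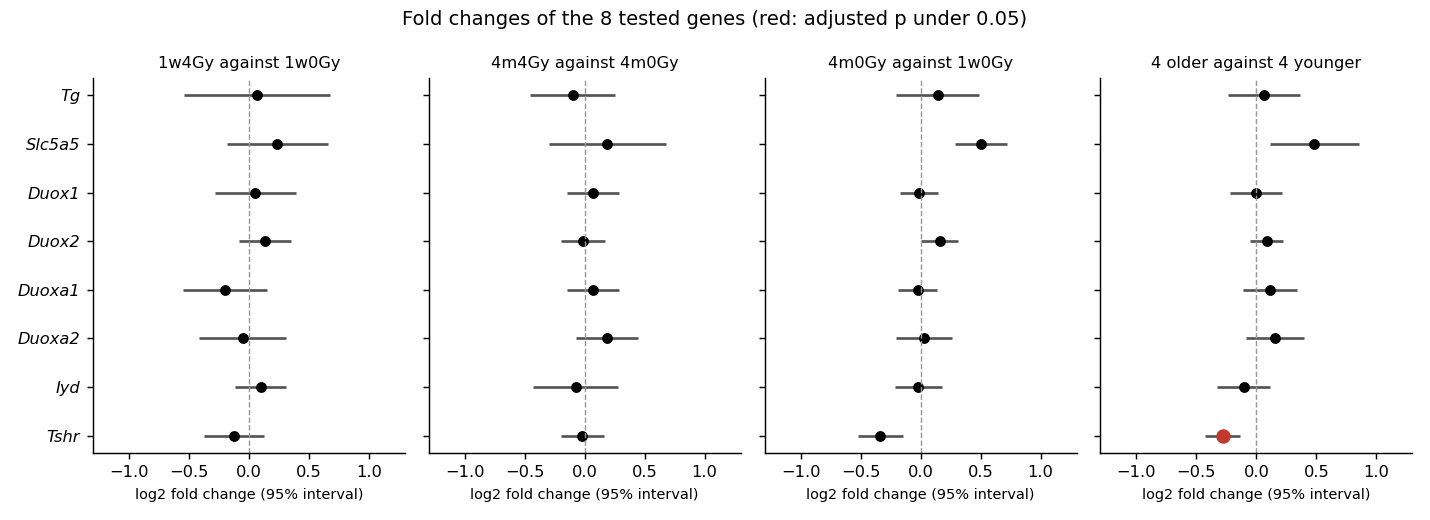
Log2 fold changes of the 8 tested genes (points) with 95% intervals (bars) from edgeR's quasi-likelihood fits in 4 comparisons, with a dashed line at no change. Every interval of the 2 irradiation comparisons includes 0, and the red point, Tshr at -0.28 in the older rats, is the 1 call at an adjusted p under 0.05.

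The 1 call among the members was made between the ages. The older and younger rats differ in age at exposure and at sampling, and in any batch of their handling, which cannot be told apart. Over both doses Tshr fell with age and was the 1 member called of 8, where 4.60% of 15684 genes were called. It was lower in all 4 older samples (227.4 to 247.1 CPM) than in all 4 younger ones (261.1 to 318.2 CPM), with a log2 fold change of -0.28 (SE 0.06, 0.824-fold, adjusted p = 0.0445) by edgeR and an adjusted p of 0.00497 by DESeq2. It was the 1 member of 8 whose age groups did not overlap, and since this held for 12.8% of all genes, that count is at the background. The call was near its threshold: it was lost in 7 of the 8 fits that left out 1 sample, with log2 fold changes of -0.32 to -0.23 and adjusted p up to 0.164, and with counts summed over transcripts (adjusted p = 0.0611). On a second Tshr transcript of 783 bases, tried after seeing the data, the value was -0.20 with an adjusted p of 0.199.

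In the sham-irradiated rats alone Tshr had a log2 fold change of -0.33 (SE 0.08, adjusted p = 0.112; 0.0646 by DESeq2). Relative to Tg in the same sample the older rats had 2.15, 2.06, 2.33 and 2.14 Tshr reads per base for every 1000 of Tg, and the younger rats 2.93, 2.93, 2.54 and 2.58. These did not overlap, and the log2 difference was -0.34 (exact permutation test, two-sided, p = 0.0286, the smallest that 4 against 4 allows, adjusted p = 0.143 over 5 ratios). Relative to the 6 follicular cell markers, a ratio added after seeing the data, the difference was -0.42 (exact permutation test, p = 0.0286, adjusted p = 0.0857 over 3 ratios), with no overlap.

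The tissue around the follicles differed with age as well. Summed fibroblast markers were at 2198 to 3019 CPM in the 4 younger samples and 822.5 to 1115 CPM in the 4 older ones, and 4 of 5 fell with age by the same test. Of the adipocyte markers 2 of 5 fell, with sums of 136.5 to 277.4 CPM in the younger and 67.65 to 170.7 CPM in the older samples. Of the C cell markers 2 of 6 rose, with sums of 1971 to 3413 CPM against 4333 to 7116 CPM. Of the macrophage markers 2 of 4 (Csf1r and Mrc1) fell. Of the endothelial markers 1 of 4 fell, Cdh5, with a log2 fold change of -0.44 (adjusted p = 0.00746), and so did the red blood cell marker Hba-a2 (-0.59, adjusted p = 0.00986). No lymphocyte, parathyroid or skeletal muscle marker that was tested was called. None of the 6 follicular cell markers was called, with a median log2 fold change of 0.13. The part of these tissues in the age difference of Tshr was not tested.

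Slc5a5 was higher in the older rats without a call by edgeR. In the sham-irradiated rats it stood at 335 and 392.1 CPM at the younger and 504.8 and 525.2 CPM at the older age, without overlap. The log2 fold change was 0.50 (SE 0.09, 1.42-fold, adjusted p = 0.072). DESeq2 called it with an adjusted p of 0.00076, and so did edgeR with no filter on low counts (adjusted p = 0.019). Other edgeR settings did not call it. The fit of all 8 samples had an SE of 0.23 and an adjusted p of 0.336. The adjusted p was 0.107 with summed transcripts and 0.119 with the sample number as a term. When 1 sample was left out the log2 fold change ran from 0.39 to 0.62. Over both doses the value was 0.48 (SE 0.16, adjusted p = 0.135; 0.28 by DESeq2), and the ages overlapped through the irradiated samples: 507.2 CPM in a 1w4Gy sample was above 442.9 CPM in a 4m4Gy sample. Whether the age difference of Slc5a5 differed between doses is the interaction, which was 0.04 (SE 0.33, adjusted p = 0.98).

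Among the sham-irradiated rats DESeq2 called 1 member (Slc5a5), beside 344 of 21241 genes. By edgeR 0 of 8 members were called, where 0.722% of 15364 genes were called. That background of 111 genes went to 0 and 7 without the first and the second 1w0Gy sample, and to 363 and 646 without the first and the second 4m0Gy sample. 2 members (Slc5a5 and Tshr) had an unadjusted p under 0.05. The groups did not overlap for 4 members, with Tg, Slc5a5 and Duox2 higher and Tshr lower in the older rats, and this held for 50.2% of all genes. The other 6 members had log2 fold changes of 0.16 (Duox2), 0.14 (Tg), 0.03 (Duoxa2), -0.01 (Duox1), -0.02 (Iyd) and -0.02 (Duoxa1) among the sham-irradiated rats, with adjusted p of at least 0.284. Over both doses none of these 6 was called: Duoxa2 had a log2 fold change of 0.15, Duoxa1 of 0.11, Duox2 of 0.09, Tg of 0.06, Duox1 of -0.01 and Iyd of -0.11, with adjusted p from 0.461 to 0.984. The median of the 8 was 0.07, against -0.00245 over all genes tested. The 2 age comparisons share the 4 sham samples.

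Other genes of the pathway were read from lists, 40 genes in all, of which 39 were found. Of the iodide and ion handling genes, with Slc26a7, the apical channel Ano1 and the potassium channel parts Kcne2 and Kcnq1 among them, 9 of 10 were tested and none was called in any of the 6 comparisons. With age over both doses the log2 fold change was 0.16 for Slc26a7 (adjusted p = 0.21) and 0.38 for Kcnq1 (adjusted p = 0.429). Of 9 genes for the uptake and proteolysis of thyroglobulin, 1 rose and 1 fell with age. Ctsl, which encodes the lysosomal protease cathepsin L, had a log2 fold change of 0.32 (SE 0.07, adjusted p = 0.0433). Ctss, which encodes cathepsin S, a protease also abundant in antigen-presenting cells, had -0.77 (SE 0.11, adjusted p = 0.0105). It moved beside the 4 macrophage markers, whose sum was 63.4 to 77.28 CPM in the younger and 37.73 to 54.55 CPM in the older samples, and the part of these cells in its value was not tested. Asgr1, the asialoglycoprotein receptor, had the highest positive value of the group, 0.54, without a call (adjusted p = 0.097).

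None of 15 genes of TSH receptor signalling was called in any comparison, with values from -0.47 for the cyclic AMP-responsive regulator Crem (adjusted p = 0.202) to 0.17 for the adenylyl cyclase Adcy3 (adjusted p = 0.377) in the age comparison over both doses. Gnas, which encodes the G protein subunit that couples the receptor to adenylyl cyclase, varied from 939.9 to 2208 CPM. It was lowest in the second 4m4Gy sample, which was also lowest in parathyroid markers. The part of parathyroid tissue in the Gnas values was not tested. Of the other NADPH oxidase genes 4 of 6 were tested and none was called, with a log2 fold change of -0.10 for Cyba (adjusted p = 0.562) and 0.20 for Nox4 (adjusted p = 0.728) in the same comparison.

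The genes whose pattern over the 8 samples was closest to that of Slc5a5 were Gfra3 and Dio1, each with a root mean square difference of 0.157 in gene-centred log2 CPM, and ENSRNOG00000019857 at 0.162, out of 9944 genes. Dio1, which encodes the type 1 deiodinase, averaged 663.6 CPM. For Slc26a4 the nearest were Cpa6 (0.286), Gpnmb (0.363) and Fgfr3 (0.392), a likeness that rests on the 18 counts of Slc26a4. No test was made of these likenesses.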

How the data were processed

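RNA-Seq of 8 thyroid samples was analysed, 2 in each of 4 groups taken from the sample titles. Per the labels, the libraries were directional and read as 100-base pairs, and the authors mapped reads with HISAT2 2.2.1 and counted them with featureCounts 2.0.0. The genome build is not given in the sources used here. The authors deposited raw counts for each of 54991 transcripts, and TPM and RPKM derived from them. Counts were used for every test, the deposited TPM values for levels between genes, and RPKM was not used. Since reads are counted for each transcript they overlap, 1 transcript per gene was taken, that of the highest total.

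Tests used R 4.3.3 with edgeR 4.0.16 (TMM, filterByExpr, quasi-likelihood at default settings) and Benjamini-Hochberg adjustment over all genes. Comparisons of 2 groups were fitted on their own 4 samples, the others on all 8. The limit for a call was an adjusted p of 0.05, joined at a single irradiated age by a fold above 1.5 or under 0.5. The p-values measure only the spread between these samples. The 2 samples of a group differed beyond sampling noise (chi-square over its degrees of freedom between 7.97 and 16.2). Scripts were tested on simulated data. DESeq2 1.42.0, other scalings, filters and transcript choices, a replicate block and leaving out each sample were the alternatives. The members, the lists and the tests were chosen with earlier results of these data known. Every member is named in every comparison. From the other lists, genes called and those of the largest and smallest age difference are named, with the genes said to be picked after their values were seen. Slc26a7 and Cyba were also picked after their values were seen, and the values of some listed genes are not reported here. The 5 genes not found under their listed symbols were Cybb, Myh1, Hba-a1, Hbb and Alas2. The skeletal muscle markers summed to 6.674 to 88.47 CPM, lymphocyte markers to 1.29 to 3.213 CPM, endothelial markers to 528.1 to 733 CPM and the red blood cell marker Hba-a2 to 290.8 to 567 CPM. Names and neighbours come from RefSeq GRCr8.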

Additional observations from a re-analysis of the deposited data

How the results depend on the processing

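With every sample kept and the transcript of each gene unchanged or its transcripts summed, no other scaling, filter or test turned the direction of any member's value, and none of these made a call in the 4 comparisons that involve irradiation. In the sham-irradiated rats the count of members called went from 0 to 1, Slc5a5, with DESeq2 and with no filter on low counts, and lay between 0 and 1 when a sample was left out. With age over both doses it went from 1 to 0 with summed transcripts, and lay between 0 and 1 when a sample was left out. The replicate block, with the sample number as a term, changed no call of a member: Tshr kept a value of -0.28 (adjusted p = 0.0365). The labels give same-numbered samples only a number in common. Between groups the deviations of same-numbered samples correlated between -0.231 and 0.152. The lowest value was that of the 2 sham groups, where samples of opposite number deviated together. Whether samples share a batch was not tested. In the sham-irradiated rats the block left 20 calls over all genes, and the crossed replicate block, added after seeing the data, 346, against 111 without a block. With age over both doses, 796 genes were called with the block against 722. The settings legacy off and robust on of edgeR, added later, changed no call of a member. Over all genes, the counts of calls that moved by over 1.5 times with every sample kept were those of DESeq2 (13 after neonatal irradiation, 4 at 4 months, 21 in the interaction, 16 over both ages, 344 in the sham-irradiated rats), of no filter (2 at 4 months, 2 in the interaction, 3 over both ages, 436 in the sham-irradiated rats and 1145 over both doses) and of summed transcripts (17 in the sham-irradiated rats), those with the block after neonatal irradiation (7), at 4 months (2) and in the sham-irradiated rats (20), the crossed block (346), the fit of all 8 samples after neonatal irradiation (1), and robust on after neonatal irradiation (1) and at 4 months (3). Leaving out 1 sample gave 0 to 59 calls after neonatal irradiation (59 without the second 1w4Gy sample), 1 to 29 at 4 months, 0 in each interaction fit, 1 to 11 over both ages, 0 to 646 in the sham-irradiated rats and 237 to 726 with age over both doses. The last fell from 722 to 281 and 271 without the first and the second 1w0Gy sample, to 370 without the first 4m0Gy sample, and to 237 and 260 without the first and the second 4m4Gy sample.

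Counting a shorter transcript of Tg, a choice made after seeing the data, turned its direction. The 2262-base transcript gave -0.017 after neonatal irradiation, 0.10 at 4 months, -0.14 in the interaction and 0.0491 over both ages. The 1218-base transcript gave -0.061, 0.18, -0.26 and 0.066 in the same order, and -0.052 with age in the sham-irradiated rats. The 942-base transcript gave -0.093 with age over both doses. The 783-base transcript of Tshr gave 0.12 in the interaction.

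Leaving out 1 sample turned the direction of 43 of 288 fold changes, each of them without a call, and the cause was not tested. After neonatal irradiation the range was -0.0068 to 0.14 for Tg, -0.28 to 0.15 for Duoxa2, -0.054 to 0.48 for Slc5a5, -0.18 to 0.26 for Duox1 and -0.45 to 0.015 for Duoxa1. For irradiation at 4 months the range was -0.090 to 0.039 for Tshr, -0.34 to 0.14 for Iyd, -0.24 to 0.019 for Tg, -0.093 to 0.051 for Duox2, -0.23 to 0.51 for Slc5a5, -0.054 to 0.17 for Duox1 and -0.045 to 0.17 for Duoxa1. In the interaction the range was -0.28 to 0.46 for Slc5a5, -0.26 to 0.19 for Duox1 and -0.043 to 0.43 for Iyd. For irradiation over both ages the range was -0.082 to 0.047 for Tg, -0.058 to 0.17 for Duox1, -0.048 to 0.17 for Duoxa2, -0.19 to 0.045 for Duoxa1 and -0.12 to 0.12 for Iyd. With age in the sham-irradiated rats the range was -0.067 to 0.14 for Duoxa2, -0.11 to 0.067 for Iyd, -0.041 to 0.011 for Duox1 and -0.061 to 0.0099 for Duoxa1. With age over both doses the range was -0.11 to 0.12 for Duox1, -0.23 to 0.0046 for Iyd and -0.0017 to 0.12 for Tg. For irradiation over both ages the log2 difference of the ratio ran from -0.040 to 0.051 for Duox2 to Duox1, from -0.14 to 0.025 for Tshr to Tg and from -0.066 to 0.089 for Duoxa2 to Duox2. With age over both doses the log2 difference of the ratio ran from -0.0031 to 0.13 for Duoxa2 to Duox2. With 2 samples a group the spread between rats, and for Slc26a4 the depth, limits what can be seen.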
